A study of Mus musculus with 4 samples.

Results

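A group of 10 genes of the P-TEFb and transcription elongation machinery was examined among the 18436 genes of the expression table. They were chosen by symbol (Cdk9, Ccnt1, Ccnt2, Cdk12, Cdk13, Ccnk, Supt5, Supt4a, Supt6 and Nelfe), and all 10 were found. RNA came from crypt cells sorted for bright GFP (Lgr5-GFP high) from the intestines of C57BL/6 mice, 2 Lgr5-WT and 2 Lgr5-CREPTKO. By the study's methods, both groups carried the Lgr5-EGFP-IRES-creERT2 allele, in which the Lgr5 promoter drives GFP and a tamoxifen-inducible Cre recombinase, and only the Lgr5-CREPTKO mice carried CREPT fl/fl. Tamoxifen (1 mg daily over 5 days) was given to both groups, with sorting on day 7. The Cre acts only in cells that express Lgr5, and it can be mosaic among them. Mice of the project were 6 to 8 weeks old and of either sex, with no separate statement for the 4 sequenced. The comparison asked whether transcripts of the elongation machinery differ once CREPT, a protein that binds the tail of RNA polymerase II, is deleted in intestinal stem cells.

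After it starts a transcript, RNA polymerase II commonly pauses a short distance from the promoter. DSIF (the proteins SPT4 and SPT5) and the negative elongation factor NELF hold it there. P-TEFb, the kinase CDK9 bound to cyclin T1 or T2, phosphorylates NELF, SPT5 and the tail of the polymerase, and the polymerase is released into elongation. CDK12 and CDK13, which both bind cyclin K, phosphorylate the tail further into the gene, and SPT6 is a histone chaperone that travels with the polymerase. Fast cycling crypt cells transcribe short-lived growth genes such as Myc, for which pause release is a known control point.

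Values are FPKM, fragments scaled by transcript length and by the mapped fragments of the library, so levels of different genes can be compared per length. Tests were made with limma on log2(FPKM + 0.5) over the 12621 genes whose mean reached 0.5 FPKM, p was adjusted by the Benjamini-Hochberg method over all of them, and log2 changes (fold changes) are Lgr5-CREPTKO minus Lgr5-WT on that scale. A gene was called changed when its adjusted p was below 0.05 and its log2 change exceeded 1 in size, the limits used in the study. The FPKM values of a mouse summed to between 468830 and 499327. Depth is not known from FPKM, and 0.333 is the smallest p of an exact permutation test between 2 pairs of mice. Rprd1b, which encodes CREPT, was at 17.69 and 18.09 FPKM in the Lgr5-WT mice and at 6.65 and 7.36 FPKM in the Lgr5-CREPTKO mice (log2 change -1.29, adjusted p = 0.0280). Of the stem cell markers, Olfm4 was between 4932 and 5351 FPKM and Lgr5 between 37.7 and 60.1 FPKM over the 4 mice, and the 5 stroma markers summed to between 0.18 and 0.35 FPKM.

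Nelfe, the gene of the RNA-binding subunit of NELF, was the member called changed, and it fell. The gene lies at chr17:34850391-34856372 on the plus strand of GRCm38.p6, and its longest coding transcript has 11 exons and 1607 bases. Its annotated end lies 1 base from that of Cfb on the minus strand, and whether the counting used strand is not given in the sources used here. It is also known as RD, after a tract in which arginine and aspartate codons alternate. The tract is a landmark of the transcript whose level changed, and its longest unbroken run of arginine, aspartate and glutamate codons is shown. Whether the named tract extends beyond this run was not examined. The run, labelled Nelfe tract below, is 19 codons long and lies within exon 7 at chr17:34854064-34854120. It holds 9 arginine codons (capitals), 8 aspartate codons and 2 glutamate codons, read from the GENCODE M21 transcript in the direction of transcription:
Nelfe tract: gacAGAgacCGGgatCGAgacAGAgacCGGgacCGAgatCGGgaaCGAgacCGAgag
None of the 50-base words of the Nelfe transcripts, the tract included, occurred in the same direction in a transcript of another gene (0 shared words). Words of the opposite strand were not searched, so overlap with genes such as Cfb was not covered.

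Nelfe was at 35.76 and 33.46 FPKM in the Lgr5-WT mice and at 11.13 and 14.96 FPKM in the Lgr5-CREPTKO mice. Both Lgr5-CREPTKO values lay below both Lgr5-WT values, with no overlap. The Lgr5-WT mean was 34.6 ± 1.63 FPKM and the Lgr5-CREPTKO mean 13.0 ± 2.71 FPKM (SD, n = 2 each), or 37.7% of it. The log2 change was -1.39 (standard error 0.152, 95% interval -1.78 to -0.997, adjusted p = 0.0333 from limma). Of all genes tested, 1.01% were called lower and 0.127% higher, and with no fold limit, under which Nelfe was again the 1 member, 2.67% were lower and 0.412% higher. In these bulk samples, fewer cells of a type and less RNA per cell cannot be told apart. The call was lost without the filter on low values (adjusted p = 0.124) and without the intensity trend in limma (adjusted p = 0.0669). Leaving out Lgr5-WT mouse 1, Lgr5-WT mouse 2, Lgr5-CREPTKO mouse 1 or Lgr5-CREPTKO mouse 2 gave -1.34, -1.44, -1.18 and -1.59, where adjusted p ran from 0.123 to 0.295, in fits that called 0 of all genes.

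**Figure D1:**
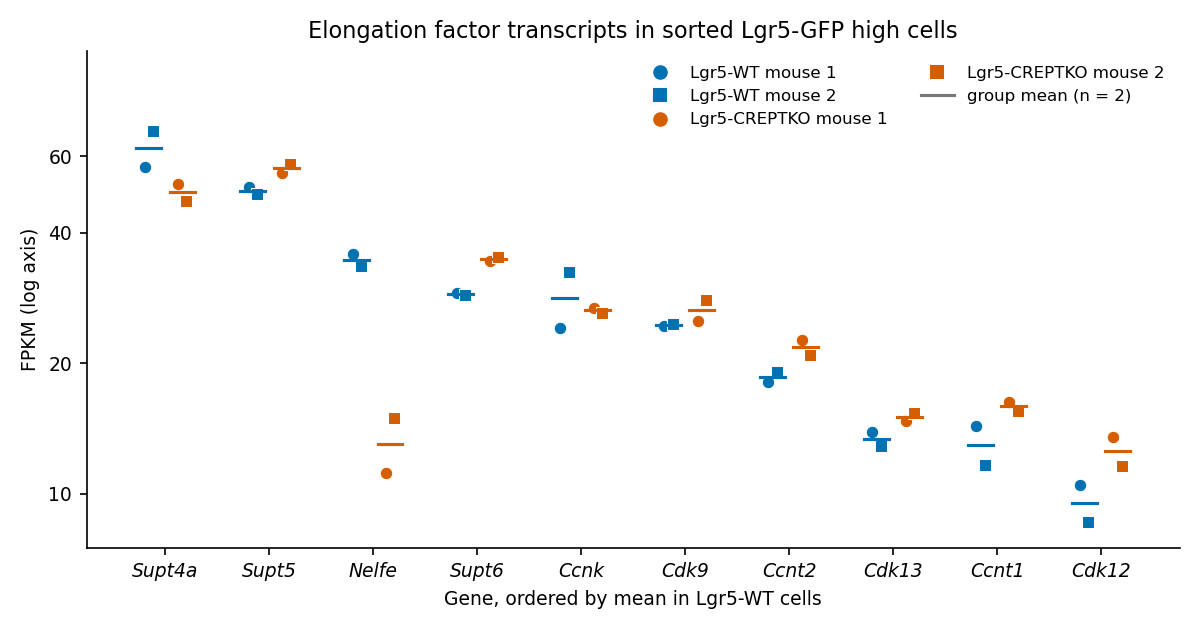
FPKM (log axis) of the 10 genes in each mouse, ordered by the mean in Lgr5-WT cells. Points are single mice (circle mouse 1, square mouse 2) and bars are means of 2 mice. Nelfe drops from 34.6 to 13.0 FPKM, while the means of the other 9 genes lie between 79.1% and 131.4% of their Lgr5-WT means.

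The other NELF subunit genes did not pass the test. Nelfa was at 22.59 and 25.41 FPKM in Lgr5-WT and at 23.56 and 23.00 FPKM in Lgr5-CREPTKO cells. Nelfb, which had the largest log2 change among the tested partners of DSIF and NELF, was at 29.86 and 36.45 FPKM and then at 36.20 FPKM in both Lgr5-CREPTKO mice (0.13, adjusted p = 0.520). Nelfcd was at 26.54 and 25.74 FPKM against 24.35 and 24.57 FPKM. In Lgr5-WT cells Nelfe had the highest mean of the 4 subunit genes, and in Lgr5-CREPTKO cells it had the lowest. Nelfe and Nelfb overlapped in Lgr5-WT cells. Within a mouse, the ratio of Nelfe to Nelfb was 1.2 and 0.918 in the Lgr5-WT mice and 0.307 and 0.413 in the Lgr5-CREPTKO mice. The ratio of Nelfe to Nelfcd was 1.35 and 1.30 against 0.457 and 0.609, and that of Nelfe to Nelfa 1.58 and 1.32 against 0.472 and 0.650. None of these ratios overlapped between the groups, and each had the smallest p the exact two-sided permutation test can give (0.333). They were chosen after their values were seen and all contain Nelfe, so they restate its fall and are not separate tests of it.

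**Figure D2:**
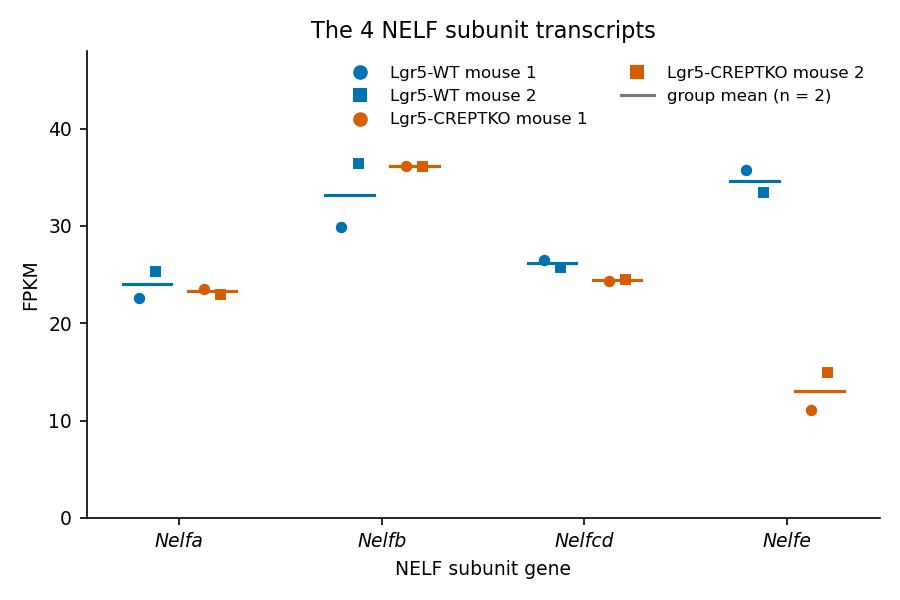
FPKM of the 4 NELF subunit genes in each mouse, on a linear axis from 0. Points are single mice and bars are means of 2 mice. Nelfa, Nelfb and Nelfcd lie between 22.59 and 36.45 FPKM in all 4 mice, and Nelfe lies there only in the Lgr5-WT mice.

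DSIF, the partner of NELF at the pause, showed no called change. Supt5, the gene of its large subunit, was at 50.85 and 49.10 FPKM in Lgr5-WT and at 54.99 and 57.63 FPKM in Lgr5-CREPTKO cells, without overlap (log2 change 0.17, adjusted p = 0.222). Supt4a, the gene of the small subunit, went the other way, from 56.70 and 68.54 FPKM to 51.72 and 47.36 FPKM (log2 change -0.33, adjusted p = 0.170). The ratio of Supt4a to Supt5 was above 1 in both Lgr5-WT mice (1.12 and 1.40) and below 1 in both Lgr5-CREPTKO mice (0.941 and 0.822), with an exact permutation p of 0.333. The value of Supt4a is less certain than the others because 18.3% of its 50-base words also occur in Supt4b, a copy that was listed at 0.26, 0.28, 0 and 0.12 FPKM. The ratio of Nelfe to Supt5 was 0.703 and 0.681 in Lgr5-WT and 0.202 and 0.260 in Lgr5-CREPTKO mice.

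The P-TEFb genes were slightly higher in Lgr5-CREPTKO cells in these samples, and none passed the test. Cdk9 was at 24.41 and 24.55 FPKM in the Lgr5-WT mice and at 24.97 and 27.97 FPKM in the Lgr5-CREPTKO mice (log2 change 0.11, 95% interval -0.12 to 0.33). Ccnt1 was at 14.33 and 11.62 against 16.25 and 15.54 FPKM, and Ccnt2 at 18.07 and 19.12 against 22.63 and 20.84 FPKM. Their log2 changes were 0.29 and 0.22, and the adjusted p were 0.232 and 0.209 from limma. The groups did not overlap in any of the 3 genes, although for Cdk9 the nearest mice were at 24.55 and 24.97 FPKM. Of all genes tested, 25.6% likewise had both Lgr5-CREPTKO values above both Lgr5-WT values. Among genes with transcripts above 5000 bases, such as Ccnt1 and Ccnt2, 50.2% did. Per length, Cdk9 transcripts outnumbered those of each cyclin T. The ratio of Ccnt1 to Cdk9 was 0.530 ± 0.0804 in Lgr5-WT and 0.603 ± 0.0673 in Lgr5-CREPTKO mice (SD, n = 2), and that of Ccnt2 to Cdk9 was 0.760 ± 0.0273 and 0.826 ± 0.114. Ccnt2 was above Ccnt1 in every mouse, by a ratio between 1.26 and 1.65. All 3 ratios overlapped between the groups.

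The genes of the later tail kinases also gave no call. Cdk12 was the least abundant of the 10 genes in both groups by its mean, at 10.46 and 8.62 FPKM in Lgr5-WT and at 13.50 and 11.57 FPKM in Lgr5-CREPTKO mice. Its log2 change of 0.38 (95% interval 0.03 to 0.73, adjusted p = 0.181) was the largest rise in value among the 10. Cdk13 was at 13.85 and 12.85 against 14.67 and 15.35 FPKM (log2 change 0.16, adjusted p = 0.322 from limma). Both kinase genes were higher without overlap, as were 25.6% of all genes tested. Both have transcripts above 5000 bases, a class in which 50.2% of the genes were. Ccnk, which encodes their cyclin, did overlap, with 24.10 and 32.40 FPKM in Lgr5-WT and 26.86 and 26.16 FPKM in Lgr5-CREPTKO mice (log2 change -0.08, adjusted p = 0.806). Cyclin K transcripts exceeded Cdk12 transcripts in every mouse. The ratio was 2.3 and 3.76 in Lgr5-WT and 1.99 and 2.26 in Lgr5-CREPTKO mice, and without Lgr5-WT mouse 2 the difference of this log2 ratio shrank from -0.47 to -0.12. Cdk13 was 1.41 ± 0.118 times Cdk12 in Lgr5-WT and 1.21 ± 0.170 times in Lgr5-CREPTKO mice (SD, n = 2), with overlap.

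Supt6 had the smallest standard error of the 10 genes and was not called. It was at 28.97 and 28.78 FPKM in Lgr5-WT and at 34.32 and 35.14 FPKM in Lgr5-CREPTKO mice, and its log2 change was 0.26 by limma (standard error 0.0695, adjusted p = 0.109). Together, 7 of the 10 genes had both Lgr5-CREPTKO values above both Lgr5-WT values, where 25.6% of all genes tested did. Among these 7, Ccnt1, Ccnt2, Cdk12, Cdk13 and Supt6 have transcripts above 5000 bases, a class in which 50.2% of the genes did. In 2 of the 10 genes both values lay below, where 31% of all genes did. The median log2 change of the 10 genes was 0.17, against -0.01 for all genes tested. The 9 genes other than Nelfe had 95% intervals that lay between -0.63 and 0.73, within the fold limit in either direction.

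**Figure D3:**
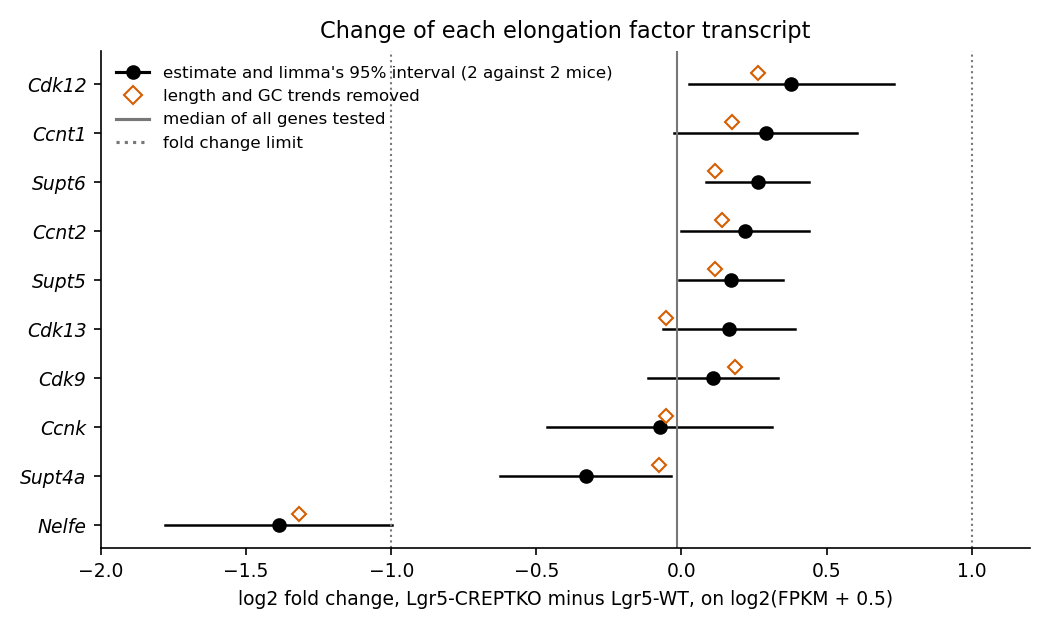
Log2 fold change of each of the 10 genes on log2(FPKM + 0.5), Lgr5-CREPTKO minus Lgr5-WT, with limma's 95% interval as a line, and the value after trends in transcript length and GC content were removed as an open diamond. Dotted lines mark the fold change limit. Nelfe is at -1.39, and the other 9 genes lie between -0.33 and 0.38.

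Log2 changes differed with transcript length over the whole table, as measured here over genes with a known transcript. The cause of this trend was not tested, and genotype cannot be told apart here from other differences between the libraries. Among tested genes with a transcript of at most 1000 bases the median log2 change was -0.22, and it was -0.13, -0.05 and 0.03 in the next length classes and 0.13 above 5000 bases. Both Lgr5-CREPTKO mice showed this trend relative to both Lgr5-WT mice. In the longest class 50.2% of the genes had both Lgr5-CREPTKO values above both Lgr5-WT values, and in the shortest 7.88% did. Among the members, 5 (Ccnt1, Ccnt2, Cdk12, Cdk13 and Supt6) are in the longest class, and Supt4a, with 706 bases, is in the shortest. Nelfe has 1607 bases, and Cdk9 1733 bases, in a class whose median was -0.13. When smooth trends in length and GC content were removed from each mouse, Supt4a moved from -0.33 to -0.08, Supt6 from 0.26 to 0.12, Cdk12 from 0.38 to 0.26 and Cdk13 from 0.16 to -0.052. Ccnt1 moved from 0.29 to 0.17 and Ccnt2 from 0.22 to 0.14, while Cdk9 rose from 0.11 to 0.18. Nelfe stayed at -1.32 (adjusted p = 0.0384 from limma), and the other 9 genes had adjusted p between 0.266 and 0.872.

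**Figure D4:**
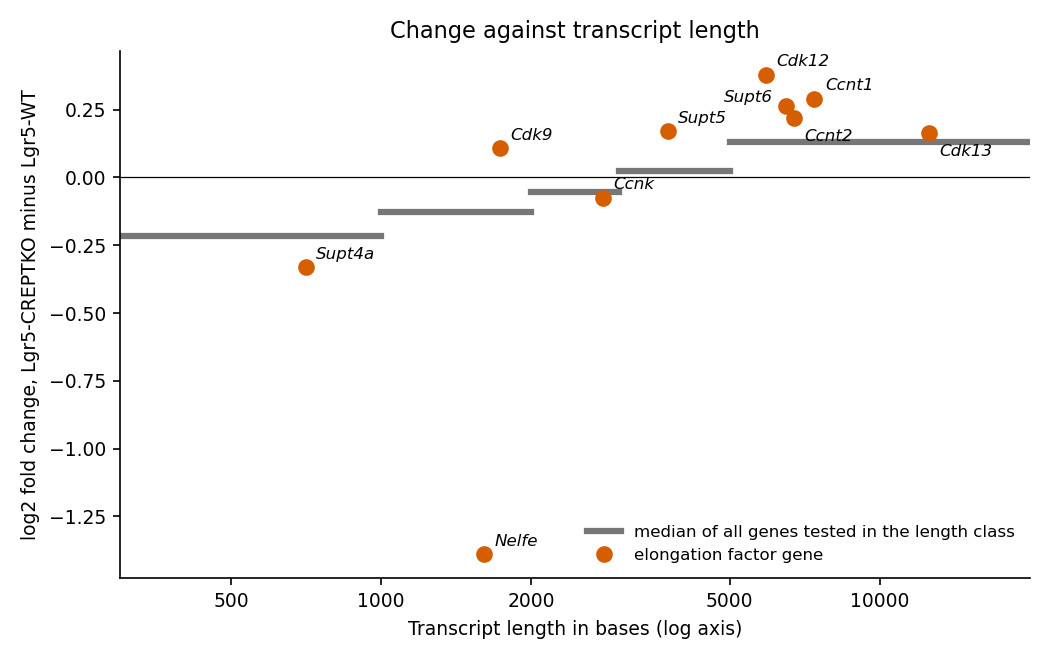
Log2 fold change of the 10 genes (points) against the length of their longest coding transcript (log axis), with the median of all genes tested in each of 5 length classes (grey bars). The class medians climb from -0.22 to 0.13, and Nelfe lies at -1.39 in a class whose median is -0.13.

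The order of the levels was similar in the groups apart from Nelfe and 2 swaps of neighbours. In Lgr5-CREPTKO cells Supt5 (56.3 FPKM) was above Supt4a (49.5 FPKM), without overlap in either group. Ccnt1 (15.9 FPKM) was above Cdk13 (15.0 FPKM) there. In Lgr5-WT cells it ran Supt4a (62.6 FPKM), Supt5 (49.98), Nelfe (34.6), Supt6 (28.9), Ccnk (28.25), Cdk9 (24.5), Ccnt2 (18.6), Cdk13 (13.35), Ccnt1 (13.0) and Cdk12 (9.54 FPKM). Supt6 and Ccnk, Ccnk and Cdk9, and Cdk13 and Ccnt1 overlapped in their values there. In Lgr5-CREPTKO cells Nelfe ranked 9th, where it overlapped with Cdk13 above it and Cdk12 below it. Among all genes tested, Nelfe went from percentile 80.5 of the Lgr5-WT means to percentile 53.7 of the Lgr5-CREPTKO means. Supt4a was at percentile 90.0 and Cdk12 at percentile 43.9 in Lgr5-WT cells.

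The genes whose values over the 4 mice lay closest to those of Nelfe, each taken relative to its Lgr5-WT mean on the log2 scale, were Abcf3, Yif1a and Pklr, of 12621 genes compared. Their Euclidean distances from Nelfe were 0.0766, 0.107 and 0.123 log2 units. Abcf3, an ATP-binding cassette protein gene, was at 15.84 and 14.81 FPKM in Lgr5-WT and at 4.84 and 6.13 FPKM in Lgr5-CREPTKO mice. Yif1a, a gene of the transport between endoplasmic reticulum and Golgi, was at 18.01 and 18.29 against 5.48 and 8 FPKM, and Pklr, a pyruvate kinase gene, at 26.01 and 26.46 against 8.62 and 11.95 FPKM.

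Markers of other cell types differed between the same mice. All 5 enteroendocrine markers were lower in both Lgr5-CREPTKO mice, with a summed level of 110.8 and 116.8 FPKM against 41.2 and 51.6 FPKM, and 3 of them were called lower. All 5 goblet markers were lower, from 1305 and 2090 to 729 and 741 FPKM in sum, with 1 called, and all 5 tuft markers, from 19.1 and 40.3 to 15.8 and 6.44 FPKM, with 0 called. The 5 crypt stem cell markers were higher, from 5447 and 5278 to 5789 and 5620 FPKM, with 0 called. Olfm4 makes up most of this sum, and the log2 changes of the 5 ran from 0.07 for Olfm4 to 0.43 for Axin2. Without overlap of the groups, 31% of all genes tested were lower and 25.6% higher. Of all genes tested, 1.01% were called lower and 0.127% called higher. The summed Paneth (586 to 1848 FPKM), enterocyte (139 to 291 FPKM) and immune (1.99 to 8.36 FPKM) markers overlapped between the groups. No marker of the enteroendocrine, goblet or tuft lists was at 0 in any mouse. The part of these cell types in the level of Nelfe was not tested.

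Promoter sequences (RefSeq, GRCm38.p6, 250 bases before to 50 bases after 1 transcript start a gene) were found for 9 of the 10 genes, all except Nelfe. That start was the annotated start of the gene in 4 of the 9 (Cdk9, Ccnt1, Ccnt2 and Supt4a), and it lay 85 bases into the gene for Supt5, 115 for Cdk13, 269 for Supt6, 430 for Ccnk and 872 for Cdk12. They shared a GC-rich composition of 58.7% to 78.3% GC, against a median of 52.7% over 32841 promoters. Those promoters were not limited to genes expressed in these cells, so the shares below are not a comparison with expressed genes. The GC box GGGCGG, searched on both strands, was in 8 of the 9, all except Supt6, and in 35.7% of all promoters. The TATA box TATAAA was in 0 of the 9 and in 13.6% of all promoters, and CCAAT was in 3 of the 9 and in 37.4% of all. Of those placed at the gene start, the promoters of Cdk9, the P-TEFb kinase, and of Supt4a, the most abundant member in Lgr5-WT cells, are shown 5′ to 3′ with GC boxes in capitals (GGGCGG, or CCGCCC where the box is on the minus strand). They hold 1 GC box and 4 GC boxes. The match of a motif is a description of the letters only.
Cdk9 (chr2:32712735-32713034, minus strand): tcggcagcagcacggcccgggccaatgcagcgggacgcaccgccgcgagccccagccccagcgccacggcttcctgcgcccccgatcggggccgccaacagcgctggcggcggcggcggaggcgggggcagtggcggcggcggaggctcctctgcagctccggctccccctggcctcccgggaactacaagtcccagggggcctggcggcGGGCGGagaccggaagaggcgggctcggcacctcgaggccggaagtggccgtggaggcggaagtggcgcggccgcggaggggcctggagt
Supt4a (chr11:87737301-87737600, plus strand): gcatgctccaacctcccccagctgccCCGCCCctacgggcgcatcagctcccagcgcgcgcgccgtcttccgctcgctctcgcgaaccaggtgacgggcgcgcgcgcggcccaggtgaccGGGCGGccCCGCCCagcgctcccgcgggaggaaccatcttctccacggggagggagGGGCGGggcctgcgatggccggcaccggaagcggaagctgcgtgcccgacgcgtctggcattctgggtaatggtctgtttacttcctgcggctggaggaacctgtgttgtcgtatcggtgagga

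The rest of the pathway was followed in 8 lists of 55 genes, all in the table, of which 54 passed the filter on low values (Supt4b did not). By limma 0 of the 54 were called in either direction and 0 had an adjusted p below 0.05 without a fold limit, where 1.14% and 3.08% of all genes tested did. At an unadjusted p below 0.05, 5 were lower and 4 higher, where 15.2% and 9.27% of all genes tested were. The median log2 change of the 54 was 0.03. Without overlap of the groups, 13 were lower and 13 higher, where 31% and 25.6% of all genes tested were.

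The super elongation complex, which brings P-TEFb to paused polymerase, held the widest differences. Eaf2, a partner of the ELL proteins, was at 2.16 and 4.79 FPKM in Lgr5-WT and at 11 and 14.52 FPKM in Lgr5-CREPTKO mice, a log2 change of 1.81 (standard error 0.351, adjusted p = 0.0662). Ell3, an ELL family member, was at 13.25 and 8.88 against 4.30 and 5.23 FPKM, a log2 change of -1.11 (adjusted p = 0.0656). The groups did not overlap in either gene. The remaining 8 genes of this list had log2 changes nearer to 0. The scaffold genes Aff1 and Aff4 had log2 changes of 0.17 and 0.13.

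The inhibitor of P-TEFb, the 7SK ribonucleoprotein, had 5 genes tested. Hexim1, its inhibitory protein, was at 28.32 and 23.61 FPKM against 26.76 and 26.10 FPKM, and Mepce, the enzyme that caps 7SK RNA, at 27.20 and 27.73 against 26.38 and 27.91 FPKM. Rn7sk, the RNA itself, was at 32.87, 9.66 and 16.57 FPKM in 3 mice and at 225.86 FPKM in Lgr5-CREPTKO mouse 2. Its log2 change of 1.76 (adjusted p = 0.458) became -0.11 without that mouse.

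The factors that travel with the polymerase gave no call. In the PAF1 complex all 6 genes had log2 changes between -0.12 and 0.13, the largest that of Cdc73 (8.94 and 8.66 against 10.19 and 9.15 FPKM). Of the 11 genes of FACT, TFIIS, elongin and the SPT6 partners, Eloc, the elongin C gene, differed most, with 36.66 and 37.82 FPKM against 31.02 and 29.19 FPKM (log2 change -0.30, adjusted p = 0.0967). Ssrp1, a subunit of the histone chaperone FACT, was at 107.37 and 103.31 against 114.15 and 111.44 FPKM. Among the 9 other transcriptional kinases and cyclins, Ccnh, the cyclin of the TFIIH kinase, had the largest log2 change, -0.22 (16.05 and 15.64 against 13.58 and 13.42 FPKM, adjusted p = 0.177).

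Genes known to depend on these kinases were not called either. The 4 genes known to depend on CDK12 (Brca1, Atr, Fanci and Fancd2, which act in DNA repair) overlapped between the groups, with log2 changes between 0.05 and 0.20. Of the 6 short-lived transcripts known to depend on CDK9, 5 overlapped, and Myc was at 74.70 and 91.01 FPKM in Lgr5-WT and at 101.62 and 109.40 FPKM in Lgr5-CREPTKO mice (log2 change 0.35, adjusted p = 0.151). Egr1 had the largest value in this list, 0.48 (adjusted p = 0.587), and was at 370.8 FPKM in Lgr5-WT mouse 1 and at 132.88 FPKM in Lgr5-WT mouse 2, on either side of the 285.11 and 336.07 FPKM of the Lgr5-CREPTKO mice. Without Lgr5-WT mouse 2 its log2 change was -0.26.

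**Figure D5:**
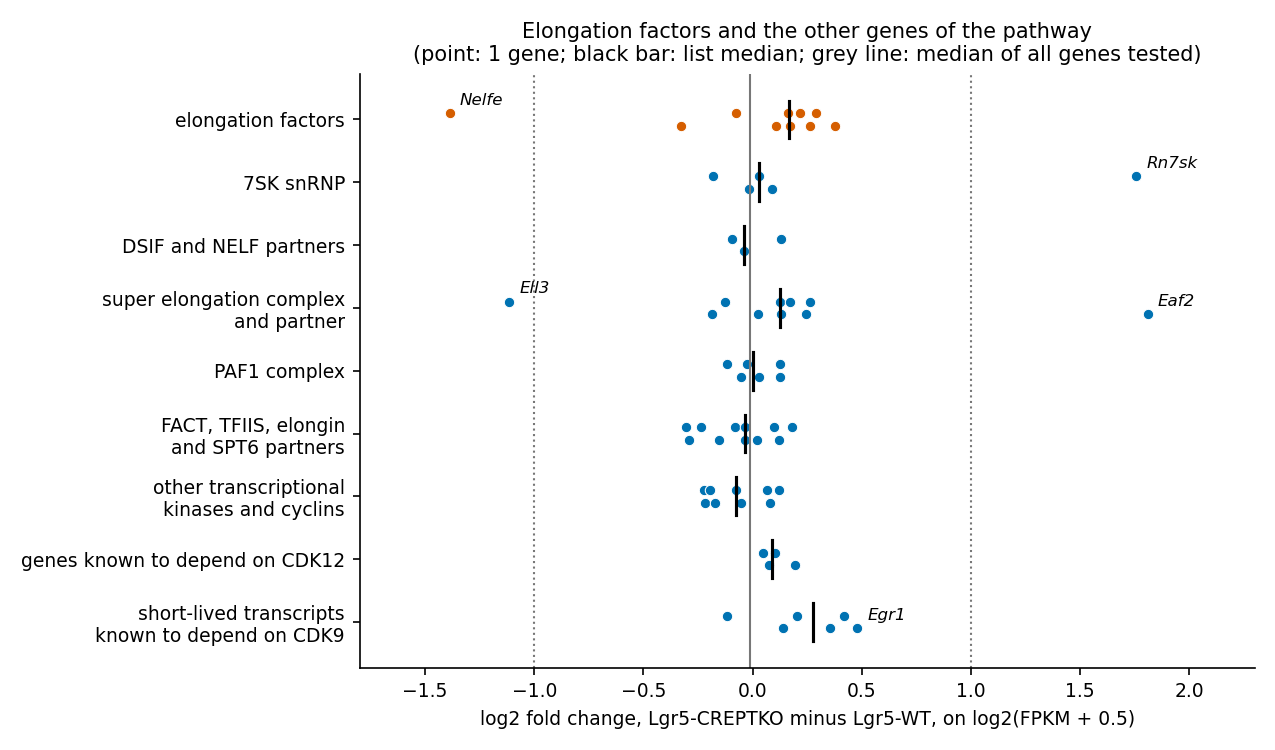
Log2 fold changes on log2(FPKM + 0.5), Lgr5-CREPTKO minus Lgr5-WT, of the 10 elongation factor genes (orange) and of the 54 tested genes of 8 further lists (blue), 1 point a gene, with list medians as black bars, the median of all genes tested as a grey line and the fold change limit as dotted lines. Of these genes Nelfe is the 1 called in this fit, and Eaf2, Rn7sk and Ell3 lie beyond the limit without a call.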

How the data were processed

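RNA of sorted Lgr5-GFP high cells from 2 Lgr5-WT and 2 Lgr5-CREPTKO mice was compared. The authors deposited 1 table of FPKM values rounded to 2 decimals, with 1 row a gene and 1 column a mouse. By the study's RNA-seq methods, which do not name the sorted cells, reads were mapped to GRCm38.p6 transcripts with Bowtie2 and quantified with RSEM, and the submitters' processing notes also name HISAT and mm10. FPKM is relative to each library's total, so a level depends on all other genes, and neither counts nor depth are known. Whether counting used strand is not given in the sources used here.

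Mice were grouped by sample titles, which the column names match. limma 3.58.1 in R 4.3.3 (lmFit, eBayes with intensity trend) was run on log2(FPKM + 0.5) for 12621 of 18436 genes whose mean reached 0.5 FPKM, where the study used a count model, which FPKM does not allow. The fit was tested on simulated data. Ratios were compared by an exact two-sided permutation test. Transcripts, exon positions and the neighbours of Nelfe came from GENCODE M21. Promoters and the starts and ends of the member genes came from RefSeq. Both sources are on GRCm38.p6. Lengths were found for 96.5% of the genes tested.

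Members and lists were chosen with earlier results of these data known. The genes named are the members, Rprd1b, list genes with an adjusted p below 0.05, the gene with the largest log2 fold change of each list, and the 3 genes nearest to Nelfe. Other list genes, the ratios of Nelfe to NELF subunits, the neighbours of Nelfe and the correction for length and GC content were chosen after their values were seen. Eloa, Elob and Eloc were matched by their older symbols.

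Pseudocount, filter, scaling, intensity trend, replicate block, each mouse left out and the fold limit were varied.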

Additional observations from a re-analysis of the deposited data

How the results depend on the processing

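Nelfe was lower under all 13 alternatives tried, which adds no separate support. The filter, the intensity trend and the replicate block leave its estimate at -1.39. Its groups do not overlap, so its sign cannot turn when 1 mouse is left out. In the fits to all 4 mice its adjusted p ran from 0.0284 to 0.124 by limma. Without the filter on low values, 0 of the 10 elongation genes and 0 of all genes were called, and without the intensity trend 0 of the 10 and 4 of all. With each mouse left out in turn, 0 of the 10 and 0 of all genes were called in every fit, where the lone mouse of a group is assumed to vary like the others. The count over all genes, 144, was 95 with each mouse rescaled to the same sum, 88 with trends in length and GC content removed and 389 with no fold limit. The cause was not tested, except that with no fold limit the rule itself is wider. The median of the 10 genes, 0.17, was 0.25 after rescaling, 0.12 after removal of the trends and between 0.13 and 0.19 with a mouse left out. Of the 10 members, Cdk13 turned in sign with the trends removed (-0.052), and Ccnk after rescaling (0.0021) and without Lgr5-WT mouse 2 (-0.28 to 0.13 over the mice left out). Of the 54 pathway genes, 24 turned with some mouse left out, and 12 of the 51 with a known length turned with the trends removed, 0 of them called. Among the pathway genes picked by the naming rule these were Rn7sk (-0.11 to 3.62, by Lgr5-CREPTKO mouse 2), Nelfb (-0.0098 to 0.27, by Lgr5-WT mouse 1) and, by Lgr5-WT mouse 2, Atr (-0.0014 to 0.39) and Egr1 (-0.26 to 1.22), all with a mouse left out.

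The mice share only a replicate number and are different animals. The deviations of same-numbered mice from their group means correlated at -0.027 over genes. With the replicate block, Nelfe was called (adjusted p = 0.0412), 109 genes were called in all, and 1 pathway gene, Eaf2, was called where none was without it. Precision is limited by 2 mice a group and by the unknown depth.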

Other observations

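Nelfe lies in the dense class III part of the major histocompatibility complex on chromosome 17, and its neighbours were read as values after the fall of Nelfe was seen. Of the 11 genes of the table within 50 kb, 9 were tested, and 1 had an adjusted p below 0.05. This was Cfb, the complement factor B gene, at 43.49 and 41.11 FPKM in Lgr5-WT and at 25.81 and 24.28 FPKM in Lgr5-CREPTKO mice (log2 fold change -0.74, adjusted p = 0.0319 from limma, and from 0.0282 to 0.295 over the alternatives). Its annotated end on the minus strand is 1 base from the end of Nelfe on the plus strand. Skiv2l, whose start is 180 bases from that of Nelfe on the other strand, was at 31.22 and 30.32 FPKM against 27.53 and 32.09 FPKM, with overlap. Dxo was at 23.50 and 23.19 against 20.03 and 20.68 FPKM (adjusted p = 0.200), Zbtb12 at 12.56 and 10.64 against 8.76 and 8.45 FPKM (adjusted p = 0.121), and Stk19, C2 and Ehmt2 had log2 fold changes between -0.12 and 0.17. The remaining tested neighbours were microRNA genes, Mir6970 and Mir6972, which did not pass the test. They lie within Skiv2l and Cfb on the same strand, so they are not separate from these genes. Whether reads of Cfb and Nelfe can be told apart by strand is not known from the sources used here.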
